A study of Mus musculus with 31 samples.

Results

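The olfactory receptor genes of mouse chromosome 9 were followed in the distal colon of mice of a colorectal cancer model, with and without oral food-grade titanium dioxide (E171). The region was taken because it holds Olfr975, and the members were then found by annotation and detection. A probe of the array entered when its gene name was Olfr followed by a number and its listed position (mouse build mm9) was on chromosome 9, which gave 140 probes of 135 gene symbols. It was kept when the scanner software called it well above background on 60% or more of the arrays of at least 1 group, which left 46 probes, 1 per gene. The same rule kept 414 of the 1150 Olfr probes of the whole array and 42790 of its 56605 non-control probes. Olfr975 is among the 46, and the other 45 lie around it or in a second stretch of the same chromosome.

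The 31 arrays each carried RNA of the distal colon of 1 BALB/c mouse. All mice, aged 4 to 6 weeks, were given azoxymethane (AOM), a colon carcinogen, and 2% dextran sodium sulphate (DSS), which inflames the colon, so the CRC group is a carcinogen-treated control and no group was free of AOM and DSS. CRC mice were gavaged with water, the vehicle, and CRC + E171 mice with E171 at 5 mg per kg body weight per day, 5 days a week, for 2, 7, 14 or 21 days. Each of the 8 groups held 2 males and 2 females, except CRC at 21 days with 1 male and 2 females. A p-value here measures the spread between mice, with 1 array per mouse and no repeat of an array.

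Olfactory receptors are G protein-coupled receptors for odorants. They form the largest gene family of the mouse and sit in clusters of neighbouring genes, usually with the whole coding sequence in a single exon. In the nose each sensory neuron transcribes a single receptor gene, a choice that needs the transcription factors Lhx2 and Ebf, and the receptor reaches the membrane with the help of Rtp1. It signals through the G protein subunit Gnal, the cyclase Adcy3 and the channel subunit Cnga2. Some receptors are also transcribed outside the nose, among other places in the gut. MOR names, taken here from the synonyms in the RefSeq table, sort the receptors into families by protein similarity.

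The probes are 60 bases long and are printed here for the members on which the results turn: Olfr975, 4 of the members that were among the 3 with the smallest p on a day of exposure (Olfr870, Olfr905, Olfr948, Olfr983), the members with the smallest p between scan days (Olfr905, Olfr901, Olfr910), and Olfr918, which shares a stretch with Olfr983. Each is written 5′ to 3′ as the array files list it, and capitals mark its longest run of bases that also stands in the probe of another Olfr gene among the 1150 Olfr probes compared.
Olfr975 (MOR224-2, chr9:39757422-39757481, minus strand): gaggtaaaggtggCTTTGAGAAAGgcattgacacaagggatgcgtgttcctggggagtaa
Olfr870 (MOR141-1, chr9:19975357-19975416, minus strand): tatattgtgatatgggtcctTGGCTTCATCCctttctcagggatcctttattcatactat
Olfr901 (MOR162-8, chr9:38238625-38238684, plus strand): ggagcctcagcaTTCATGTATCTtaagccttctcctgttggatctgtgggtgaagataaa
Olfr905 (MOR167-1, chr9:38281146-38281205, plus strand): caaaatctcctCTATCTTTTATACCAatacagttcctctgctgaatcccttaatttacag
Olfr910 (MOR165-3, chr9:38347109-38347168, plus strand): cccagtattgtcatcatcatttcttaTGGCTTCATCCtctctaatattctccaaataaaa
Olfr918 (chr9:38480147-38480206, minus strand): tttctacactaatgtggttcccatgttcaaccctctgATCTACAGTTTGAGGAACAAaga
Olfr948 (MOR171-51, chr9:39126547-39126606, minus strand): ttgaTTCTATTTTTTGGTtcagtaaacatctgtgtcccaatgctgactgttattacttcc
Olfr983 (MOR162-1, chr9:39899657-39899716, minus strand): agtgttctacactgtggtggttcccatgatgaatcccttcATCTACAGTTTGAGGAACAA
Over the 46 probes the longest shared run had 10 to 21 bases with a median of 12. It reached 20 bases in 6 members (Olfr871, Olfr147, Olfr907, Olfr918, Olfr965 and Olfr983) and 30 bases in none. Olfr918 and Olfr983 hold the same run of 20 bases, and Olfr870 and Olfr910 the same run of 11. Of the 140 probes 139 matched a gene of the RefSeq table, the 46 members among them, each under the same symbol and as a protein-coding gene. Whether a probe lies in coding or untranslated sequence was not analysed here, since no annotation of build mm9 was used.

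Values are given on a log2 scale on which 0 is the 75th percentile of the probe signals of the same array, and negative values are dimmer. That percentile ranged from 1717 to 6536 signal units over the arrays, 67.4 to 78.9% of the probes of an array were well above background, and the median of the negative control probes lay between -9.34 and -7.79. On day 2 the 75th percentile of the CRC + E171 arrays (2103 to 3016) was below that of every CRC array (3542 to 5289), and its part in the results of that day was not tested. The arrays were on 8 slides scanned on 3 days (12, 12 and 7 arrays). All 12 arrays of the first scan day bear replicate number 1 and all 7 of scan day 3 bear number 2, so scan day and replicate number cannot be told apart there. The arms of a day of exposure shared only 1 scan day. For day 2 CRC was on scan days 1 and 2 and CRC + E171 on 2 and 3, for day 7 on 1 and 2 against 1 and 3. For day 14 CRC was on 2 and 3 and CRC + E171 on 1 and 2, for day 21 on 1 and 3 against 1 and 2. Arm and scan day are thus in part confounded on each day of exposure. Colon epithelium markers were bright on nearly all arrays, with 12 of 12 probes kept and a mean between 3.73 and 5.06, but not on CRC 7 days male 1 (-1.24, with skeletal muscle markers at 4.31), CRC 7 days male 2 (1.82) and CRC + E171 14 days male 2 (3.09). The array labelled male 2 of CRC at 14 days had Xist at -1.60, where the lowest female had -2.34 and the highest other male -6.53, so sex comparisons are given with and without it.

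The members were dim on the scale of their arrays, and 46 of 140 chromosome 9 probes met the detection rule. Their mean over the arrays had a median of -5.22, against -8.22 for the 94 probes that were not kept, -5.59 for the 368 kept Olfr probes of other chromosomes and -2.19 for all 42787 probes fitted. The share of Olfr probes kept was 32.9% on chromosome 9, 36.4% on the other chromosomes and 75.6% over all non-control probes. Well above background on all 31 arrays were 11 members, 34 were so on at least 16 arrays, and the member seen least often, Olfr849, on 6. Of the 140 probes 54 were well above background on no array. Just inside the rule were 10 members whose best group was not complete, such as Olfr835 (8 arrays, 75% of its best group) and Olfr849 (6 arrays, 75%). Just outside were 10 probes at 50% of their best group, such as Olfr830 (11 arrays) and Olfr866 (4 arrays). Of the members, 6 met the rule only in CRC + E171 groups (Olfr25, Olfr150, Olfr835, Olfr849, Olfr918 and Olfr983) and 1 only in a CRC group (Olfr871), so a difference of these between the arms was in part built into their choice. The kept probes had a median GC content of 41.7%, the probes not kept 38.3% and all probes 43.3%.

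**Figure D1:**
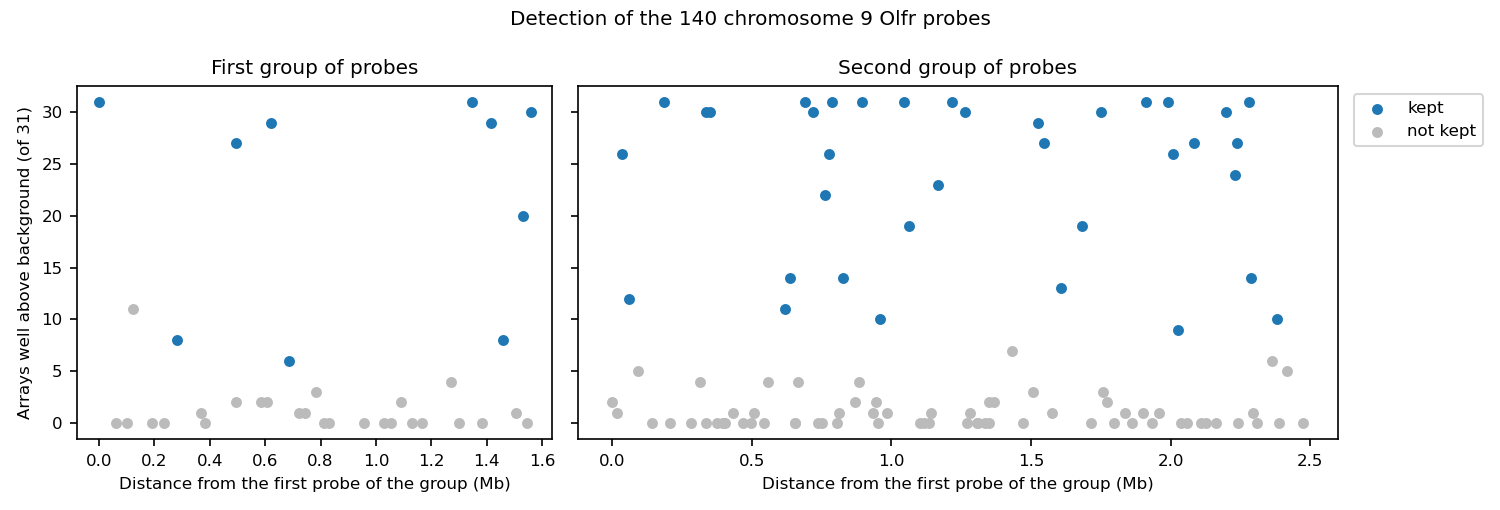
Detection of the 140 Olfr probes of chromosome 9. The vertical axis gives the number of arrays, of 31, on which a probe was well above background, the horizontal axis the distance in megabases from the first probe of each of 2 clusters, and the colours separate kept from other probes. Kept probes lie along both clusters among runs of probes that were not kept, with 10 of 36 kept in the first and 36 of 104 in the second.

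The probes fell into 2 clusters. The first, chr9:18559259-20118395, spans 1.56 Mb and held 36 probes with 10 kept, and the second, chr9:37519803-39995628, spans 2.48 Mb and held 104 probes with 36 kept. Members lay among probes that were not kept in both, as the plot of detection by position shows. The 46 members represent 17 of the 30 MOR families annotated among the 140 probes. Family MOR171 gave the most members, 13 of its 39 probes, followed by MOR165 (5 of 8), MOR162 (4 of 12), MOR161 (3 of 6) and MOR224 (3 of 10, Olfr975, Olfr149 and Olfr960).

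Of the 11 members well above background on all 31 arrays, the first 6 by position, Olfr24, Olfr868, Olfr145, Olfr147, Olfr907 and Olfr914, are described here. The other 5 were Olfr920, Olfr930, Olfr960, Olfr149 and Olfr978. The group means of the 6 stayed within about 1 log2 unit of each other. For Olfr24 they ran from -4.97 ± 0.31 (SD, n = 4, CRC + E171 at 21 days) to -4.01 ± 0.70 (n = 4, CRC + E171 at 14 days), and for Olfr145 from -5.12 ± 0.42 (n = 3, CRC at 21 days) to -4.16 ± 0.26 (n = 4, CRC + E171 at 2 days). Olfr147 lay between -4.83 ± 0.34 (n = 3, CRC at 21 days) and -3.98 ± 0.06 (n = 4, CRC + E171 at 2 days), and it was the only member with an unadjusted p below 0.05 between the days of the CRC arrays (limma F test, adjusted p = 0.506), beside 9.56% of all probes. For Olfr907 the group means ran from -5.13 ± 0.36 (CRC + E171 at 21 days) to -4.09 ± 0.72 (CRC + E171 at 2 days), and for Olfr914 from -4.33 ± 0.16 (CRC + E171 at 14 days) to -3.29 ± 0.34 (CRC + E171 at 2 days), each with n = 4. Olfr868 ran from -5.15 ± 0.40 (n = 3, CRC at 21 days) to -4.26 ± 0.48 (n = 4, CRC + E171 at 2 days). In 5 of these 6, Olfr24 being the exception, the brightest group was CRC + E171 at 2 days. Among the 11, the threshold used for differentially expressed genes (DEG), a linear fold change of 1.5 and an unadjusted p under 0.05, was met by Olfr868 (log2 fold change 0.83 ± 0.37, SE) and Olfr930 on day 2 and by Olfr978 on day 7.

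Olfr975, a receptor of family MOR224, was detected in every group but moved with no single pattern. On day 2 the CRC arrays read -5.68, -6.37, -6.14 and -5.15 (males 1 and 2, then females 1 and 2) and the CRC + E171 arrays -4.46, -5.55, -4.55 and -4.93. The CRC + E171 arrays were brighter on average, with an overlap of 1 array on each side. On day 7 the order turned, with -4.07, -5.02, -5.67 and -4.53 in CRC and -5.19, -6.16, -5.24 and -5.80 in CRC + E171. On day 14 the values were -5.03, -6.26, -5.17 and -5.65 against -5.54, -4.30, -5.32 and -3.63, and on day 21 -5.60, -5.97 and -6.26 (male 1, females 1 and 2) against -5.52, -4.65, -6.24 and -3.59. On days 14 and 21 both replicate-2 arrays of CRC + E171 were brighter than every CRC array, while the replicate-1 arrays lay among the CRC arrays or near them. The log2 fold changes were 0.96 ± 0.47 (SE), -0.78, 0.83 and 0.94 on days 2, 7, 14 and 21 in the limma fit, none of them past the threshold. Under 14 other settings Olfr975 passed it in 5 on day 2, 0 on day 7, 3 on day 14 and 2 on day 21. The exact permutation test over the arrays (two-sided) gave p = 0.0571, 0.114, 0.229 and 0.257, and the smallest p the design allows is 0.0286. Within the 1 scan day that held both arms of a day of exposure, 2 arrays against 2, the differences were 1.25, -0.35, 1.13 and -0.09. The difference of day 21 was 1.36 and past the threshold without CRC + E171 21 days female 1, and 0.47 and not past it without female 2 of the same group.

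**Figure D2:**
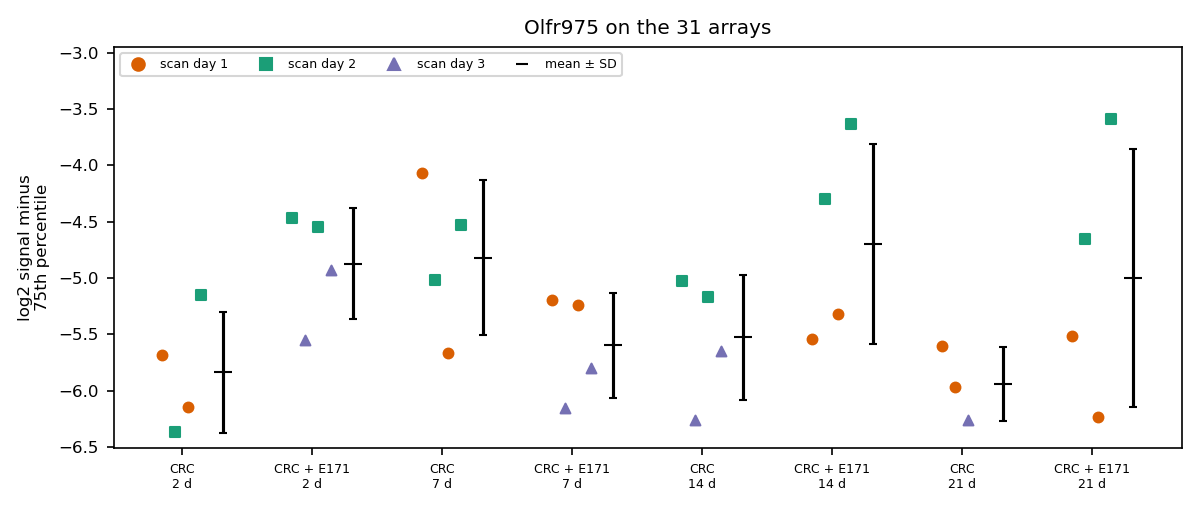
Olfr975 on the 31 arrays. The vertical axis gives log2 of the signal minus the array's 75th percentile, the horizontal axis the 8 groups, each point is 1 mouse with colour and marker for the scan day, and bars give the mean ± SD. The CRC + E171 groups of days 2, 14 and 21 average -4.87, -4.70 and -5.00 against -5.84, -5.53 and -5.94 in CRC, and at day 7 the order is -5.60 against -4.82.

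After 2 days of exposure the members were on the whole brighter with E171. Of the 46, 43 had a log2 fold change above 0, where 59.3% of all probes did, and their median was 0.58 against 0.06 for all probes. The DEG threshold was met by 5 members, or 4 higher and 1 lower, beside 2.74% of all probes (2.49% higher and 0.248% lower), and the adjusted p of every member was 0.9998 by limma. The groups did not overlap in 5 higher members (Olfr868, Olfr870, Olfr930, Olfr954 and Olfr969, beside 3.68% of all probes) and in 1 lower member (Olfr874, beside 1.14%). Over all 140 probes, 31 to 45 were well above background on the CRC arrays and 35 to 56 on the CRC + E171 arrays, so the arms overlapped in the number detected. Members were chosen in part on detection in the groups compared here, so the 140 probes are given as well. Of these, 7 met the threshold (3.18% of all probes without a filter), and their median was 0.15 against 0.07. The 368 kept Olfr probes of other chromosomes had a median of 0.52, with 40 past the threshold. Fewer cells of a type and less RNA per cell cannot be told apart in these bulk samples.

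Olfr870 had the smallest p of the day. It read -4.82, -5.81, -5.00 and -5.48 in CRC and -4.37, -3.75, -4.73 and -2.32 in CRC + E171, so every CRC + E171 array was brighter, female 2 by far the most. The log2 fold change was 1.49 ± 0.51 (SE, 2.81-fold, unadjusted p = 0.00723 by limma, exact permutation p = 0.0286). Without CRC + E171 2 days female 2 it was 0.997 and no longer past the threshold. Olfr969 of family MOR171 read -5.37, -6.96, -5.33 and -5.79 in CRC and -4.32, -5.32, -4.08 and -4.53 in CRC + E171, again with no overlap. Its log2 fold change was 1.30 ± 0.56 (unadjusted p = 0.0281 by limma, exact permutation p = 0.0286), and 0.94, not past the threshold, without CRC 2 days male 2. Olfr874 of family MOR161 went the other way, from -5.29, -4.38, -5.48 and -5.13 in CRC to -5.86, -6.67, -6.49 and -6.34 in CRC + E171. It fell by 1.27 ± 0.44 on the log2 scale (unadjusted p = 0.00832 by limma, exact permutation p = 0.0286). The scanner software called it detected in 4 of 4 CRC and 2 of 4 CRC + E171 mice. Olfr930 (1.09 ± 0.51) and Olfr868 were the other members past the threshold. The 16 values tested by exact permutation over the 4 days were not chosen independently of these arrays, since Olfr975 was taken with earlier results of these data known and the others for their small limma p, and the smallest p possible, 0.0286, was 0.0914 after Benjamini-Hochberg adjustment over the 16.

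The shift of day 2 was not seen between the arrays of 1 scan day and was smaller in a fit with scan day as a block. Between the CRC and CRC + E171 arrays that shared a scan day, 2 against 2, the members' median difference was -0.02 with 22 of 46 above 0. The share over all probes was not worked out for comparisons within 1 scan day. Olfr870 (1.10), Olfr969 (2.18) and Olfr874 (-1.42) kept their sign there. With scan day as a fixed block, a fit chosen after the data had been seen, the median was 0.37. There 38 of 46 members were above 0 (57.7% of all probes), and 5 met the threshold beside 1.65% of all probes. The count also turned on single arrays, with 2 members past the threshold without CRC + E171 2 days female 2, beside 2.47% of all probes, and 13 without CRC 2 days female 2, beside 4.98%.

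After 7 days few members differed. Of the 46, 35 were below 0 (47.7% of all probes), with a median log2 fold change of -0.18 against 0.02. The direction turned with normexp background correction, an alternative described below, where 35 of 46 were above 0 (63.0% of all probes) with a median of 0.10 against 0.12. The DEG threshold was met by 1 member, Olfr978, where 12.3% of all probes met it (4.3% lower), and no member separated the groups, as 4.02% of all probes did with higher and 2.04% with lower values. Olfr978 (MOR223-3) was well above background on all 31 arrays. It read -2.18, -0.39, -3.28 and -2.71 in CRC and -2.59, -2.94, -3.60 and -3.28 in CRC + E171, and CRC male 2 stood far above the rest. It fell by 0.96 ± 0.41 (SE, adjusted p = 0.265 by limma, exact permutation p = 0.200), but without CRC 7 days male 2 the log2 fold change was -0.38 and not past the threshold. Olfr954 (log2 fold change 0.80 ± 0.46, adjusted p = 0.402 by limma, exact permutation p = 0.143) and Olfr983 (adjusted p = 0.386, exact permutation p = 0.0857) did not pass. Olfr983 was well above background on 0 of 4 CRC and 1 of 4 CRC + E171 arrays, so no fold is given for it. Olfr954 of family MOR171 read -6.15, -5.35, -6.01 and -4.47 in CRC and -4.64, -4.91, -5.02 and -4.22 in CRC + E171.

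Tissue markers moved with this day of exposure. The counts here are of probes past the DEG threshold, which 12.3% of all probes met. The colon epithelium probes were higher in CRC + E171 in 12 of 12 cases (median log2 fold change 1.85) and the goblet cell probes in 8 of 8 (3.22). Of the skeletal muscle probes 7 of 11 were lower (-2.75). Higher past it were 5 of 9 surface colonocyte (median 2.46) and 4 of 11 enteroendocrine probes (1.07). Lower past it were 3 of 6 pancreatic acinar (median -4.93), 3 of 6 neutrophil (-2.69), 5 of 10 macrophage (-0.66) and 5 of 15 fibroblast probes (-0.66). None of these had an adjusted p under 0.05 by limma, and their part in the members' values was not tested. The epithelium mean ranged from -1.24 to 4.05 within CRC at 7 days, where the other groups averaged 4.00 to 4.25. Without both CRC 7 days males, a setting chosen after the data had been seen, the members' median was -0.31, the count stayed at 1, beside 2.79% of all probes, and Olfr978 was at -0.11 and not past the threshold. Without CRC 7 days male 2 alone 3 members met the threshold, Olfr983 among them, beside 9.13% of all probes, and without CRC + E171 7 days female 1 none did, beside 10.7%.

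After 14 days the members spread in both directions. Their log2 fold changes had an SD of 0.94, against 0.54 over all probes, around a median of 0.09. The DEG threshold was met by 12 members, 7 higher and 5 lower, beside 6.68% of all probes (3.69% higher and 2.99% lower), and the other Olfr probes gave 88 of 368. Among the 140 probes 16 met it, beside 6.39% of all probes without a filter. The groups separated in 3 higher members (Olfr847, Olfr945 and Olfr229, beside 3.48% of all probes) and 5 lower members (Olfr843, Olfr885, Olfr905, Olfr914 and Olfr948, beside 2.75%). A further probe of Olfr843 on the array was not kept, with a mean of -8.07 and 2 arrays well above background.

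Olfr905 (MOR167-1) had the smallest p. In CRC it read -4.82, -5.13, -4.81 and -5.01, and in CRC + E171 -7.62, -5.85, -8.08 and -6.44, so all 4 CRC arrays were brighter. The probe was detected in 4 of 4 CRC and 0 of 4 CRC + E171 mice. On the main scale it was at least 2.60-fold brighter in CRC over these arrays. This bound sets the mean of the bright group against, on each dim array, the higher of the dim probe's own value and the lowest signal of any probe well above background. It and the bounds that follow hold for the main scale and the arrays compared. With the normexp correction described below the log2 fold change of Olfr905 was -0.39 and not past the threshold. The limma fit gave an adjusted p of 0.475, and the exact permutation test p = 0.0286. Olfr948 of family MOR171 read -5.14, -5.89, -5.86 and -5.86 in CRC and -6.83, -6.77, -8.47 and -8.06 in CRC + E171, again without overlap. It was detected on 2 of 4 CRC and 0 of 4 CRC + E171 arrays, at least 1.58-fold brighter in CRC (exact permutation p = 0.0286). Olfr25 (MOR170-4) read -6.69, -5.23, -5.16 and -6.14 in CRC and -7.90, -8.22, -8.34 and -6.64 in CRC + E171, at least 1.46-fold brighter in CRC (exact permutation p = 0.0571), with an overlap of 1 array on each side.

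Within 1 scan day, 2 arrays against 2, Olfr905 read -5.85 and -6.44 in CRC + E171 and -4.82 and -4.81 in CRC, and Olfr948 -6.77 and -8.06 against -5.14 and -5.86. Both were lower there without overlap, while Olfr25 overlapped (-8.22 and -6.64 against -6.69 and -5.16), and none of the 3 was well above background on these CRC + E171 arrays. With scan day as a block the adjusted p of Olfr905 was 0.276 by limma, and the members past the threshold numbered 5 instead of 12, beside 6.06% of all probes. The count was 19 with quantile normalization, beside 7.48%, and 20 among the chromosome 9 Olfr probes of the authors' matrix, beside 9.72%. Among the members that met it in the other direction were Olfr229 (1.41 ± 0.49), Olfr849 (at least 1.54-fold brighter with E171), Olfr951 (1.20, well above background on 2 of 4 CRC arrays) and Olfr874 (1.13, on 3 of 4), the last with the opposite sign of day 2. Olfr849 met the detection rule only through CRC + E171 at 14 days (3 of 4 mice, against 0 of 4 in CRC), so its difference on this day was built into its choice.

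After 21 days 3 members met the threshold, 2 higher and 1 lower, beside 3.7% of all probes (1.15% higher and 2.55% lower), and the median was 0.12 against 0.02. The groups separated in no higher member, beside 4.11% of all probes, and in 1 lower member, Olfr847, beside 3.11%. Olfr983 of family MOR162 read -7.73, -9.13 and -7.40 in CRC (male 1, females 1 and 2), detected on none of them, and -4.31, -5.53, -8.32 and -3.48 in CRC + E171. With E171 3 of 4 arrays were well above background, 1 of the 2 groups through which it met the detection rule, and female 1 lay within the range of the negative controls. The member was at least 2.12-fold brighter with E171 (adjusted p = 0.779 by limma, exact permutation p = 0.114). Olfr926 of family MOR171 read -8.53, -7.58 and -5.79 in CRC and -4.40, -5.72, -7.30 and -4.61 in CRC + E171, so the groups overlapped (exact permutation p = 0.114). The scanner software detected it on 1 of 3 CRC and 3 of 4 CRC + E171 arrays, and no fold is given. Olfr884 (MOR162-9P) read -4.45, -4.68 and -5.18 against -5.22, -6.09, -5.04 and -5.15, and fell by 0.60 ± 0.29 (exact permutation p = 0.171). CRC + E171 21 days female 2 was the brightest array for the members, with a median deviation from their own means of 1.04, and also had the lowest 75th percentile, 1717. Without it 2 members met the threshold, beside 4.95% of all probes, and the members' median was -0.10. Olfr983 was still past it there and Olfr926 was not. The count was 1 without CRC 21 days male 1, beside 3.59%, 5 without CRC + E171 21 days female 1, beside 5.33%, and 6 without CRC 21 days female 2, beside 5.83%.

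Within the scan day that held both arms of 21 days, 35 of 46 members were lower with E171 (median -0.32). No share over all probes was worked out beside this count. Olfr983 read -4.31 and -8.32 there against -7.73 and -9.13 in CRC, an overlap in which 1 array carried the difference, and Olfr926 read -4.40 and -7.30 against -8.53 and -7.58. Of the 94 probes that had not been kept, 10 were past the threshold and 84 were above 0 on this day, with a median of 0.55, where all probes without a filter gave 4.22% past it, 57.3% above 0 and a median of 0.08. The median of the negative controls was also higher, from -9.07 to -8.48 on the CRC arrays to -8.38 to -7.79 on the CRC + E171 arrays of 21 days, and their part was not tested. The 140 probes together had 13 past the threshold and a median of 0.51.

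**Figure D3:**
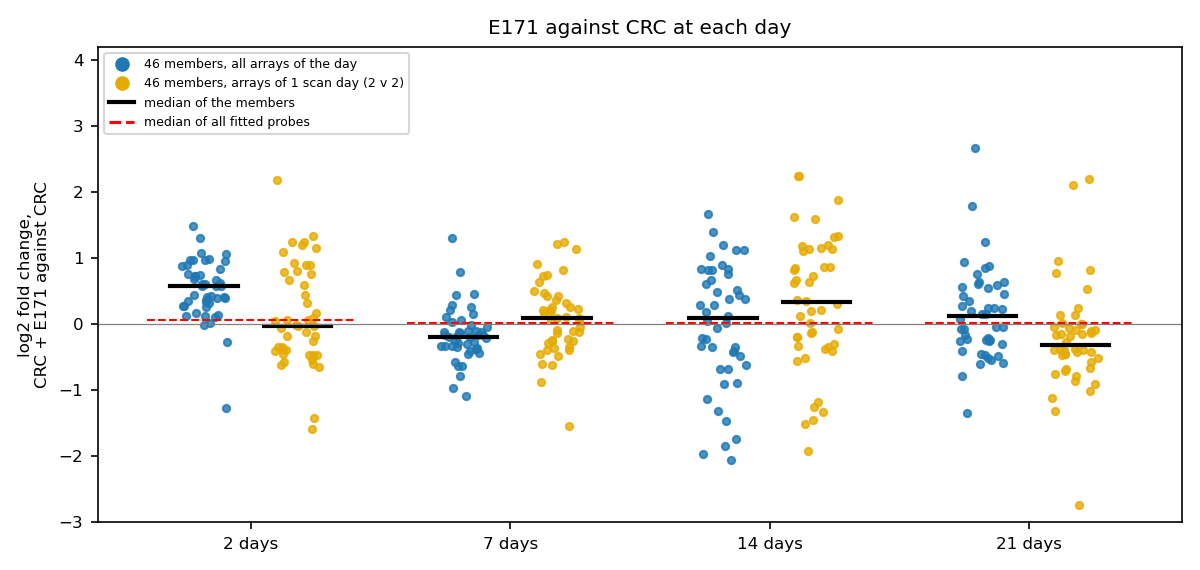
Log2 fold change, CRC + E171 against CRC, of the 46 members on each day of exposure. Each point is a member, once over all arrays and once over the 2 arrays of each arm that shared a scan day. Black bars give the members' median (0.58, -0.18, 0.09 and 0.12 over all arrays, -0.02, 0.09, 0.33 and -0.32 within 1 scan day) and red dashed lines the median of all probes.

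The members varied with the day on which the arrays were scanned. Within a group, arrays of the first scan day were replicate 1 and the later ones replicate 2, on other slides. Scan day, replicate number and slide cannot be told apart there. In a fit of scan day within the 8 groups, chosen after the data had been seen, 15 of 46 members differed between the first and the second scan day with an adjusted p under 0.05, beside 5.09% of all probes. All 15 were lower on the first scan day (5.07% of all probes), as were 2169 of the 2177 probes called in all, while 28 of 46 members had a difference below 0 of any size, beside 57.1%. The other Olfr probes gave 127 of 368. The first cluster held 1 of the 15 and the second 14. Between scan days 3 and 2 no member had an adjusted p under 0.05 by limma, beside 0.00701% of all probes, and 5 had an unadjusted p under 0.05, beside 1.71%. The members' median deviation from their own means ran from -0.58 to 0.16 on arrays of the first scan day, from -0.12 to 1.04 on scan day 2 and from -0.24 to 0.79 on scan day 3.

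The members with the smallest p were Olfr905, Olfr901 and Olfr910 of the second cluster, named here after their values were seen. Olfr905 was lower on the first scan day (adjusted p = 3.79e-06 by limma), and Olfr901 differed by -1.51 ± 0.20 (SE, adjusted p = 2.07e-05 by limma). Olfr910 was lower as well (adjusted p = 3.59e-05 by limma). On the first scan day Olfr905 was well above background on 5 of 12 arrays, Olfr901 on 11 and Olfr910 on 1, and on the second on 10, 12 and 9 of 12. No size is therefore given for Olfr905 or Olfr910. In CRC at 2 days Olfr905 read -6.31 and -6.54 on the arrays of the first scan day and -4.42 and -4.20 on those of the second. Olfr901 read -5.33 and -5.47 against -3.22 and -3.09 on the same arrays, and Olfr910 -7.64 and -7.93 against -5.23 and -3.33. In these mice of 1 group the scan days did not overlap for any of the 3. In CRC + E171 at 21 days Olfr905 likewise read -6.12 and -6.30 on the first and -4.73 and -3.24 on the second scan day. Arrays of the first scan day and a later one were held by 6 groups. The first was lower on average in 6 of 6 for 12 members, a count not made over all probes. The 12 include these 3, Olfr918, Olfr948 and Olfr983. Olfr906 and Olfr907, members that lie between Olfr905 and Olfr910, did not share this, with the first scan day lower in 1 of 6 groups each and differences of 0.40 and 0.05. The smallest difference of Olfr905 in those groups was -0.79. The largest is not given, since its arrays of the first scan day were not well above background. The kept probe of Olfr843 (adjusted p = 0.000179 by limma) and Olfr918 (adjusted p = 0.000401) followed in order of p, and Olfr983 (adjusted p = 0.0304) was the last of the 15. No size is given for the latter pair, since on the first scan day Olfr918 was well above background on 0 of 12 arrays and Olfr983 on 1. The count of 15 was 8 with quantile normalization, beside 2.94% of all probes, 5 with normexp, beside 1.34%, 16 with slide as a random block, beside 5.4%, and 12 to 17 with an array left out.

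**Figure D4:**
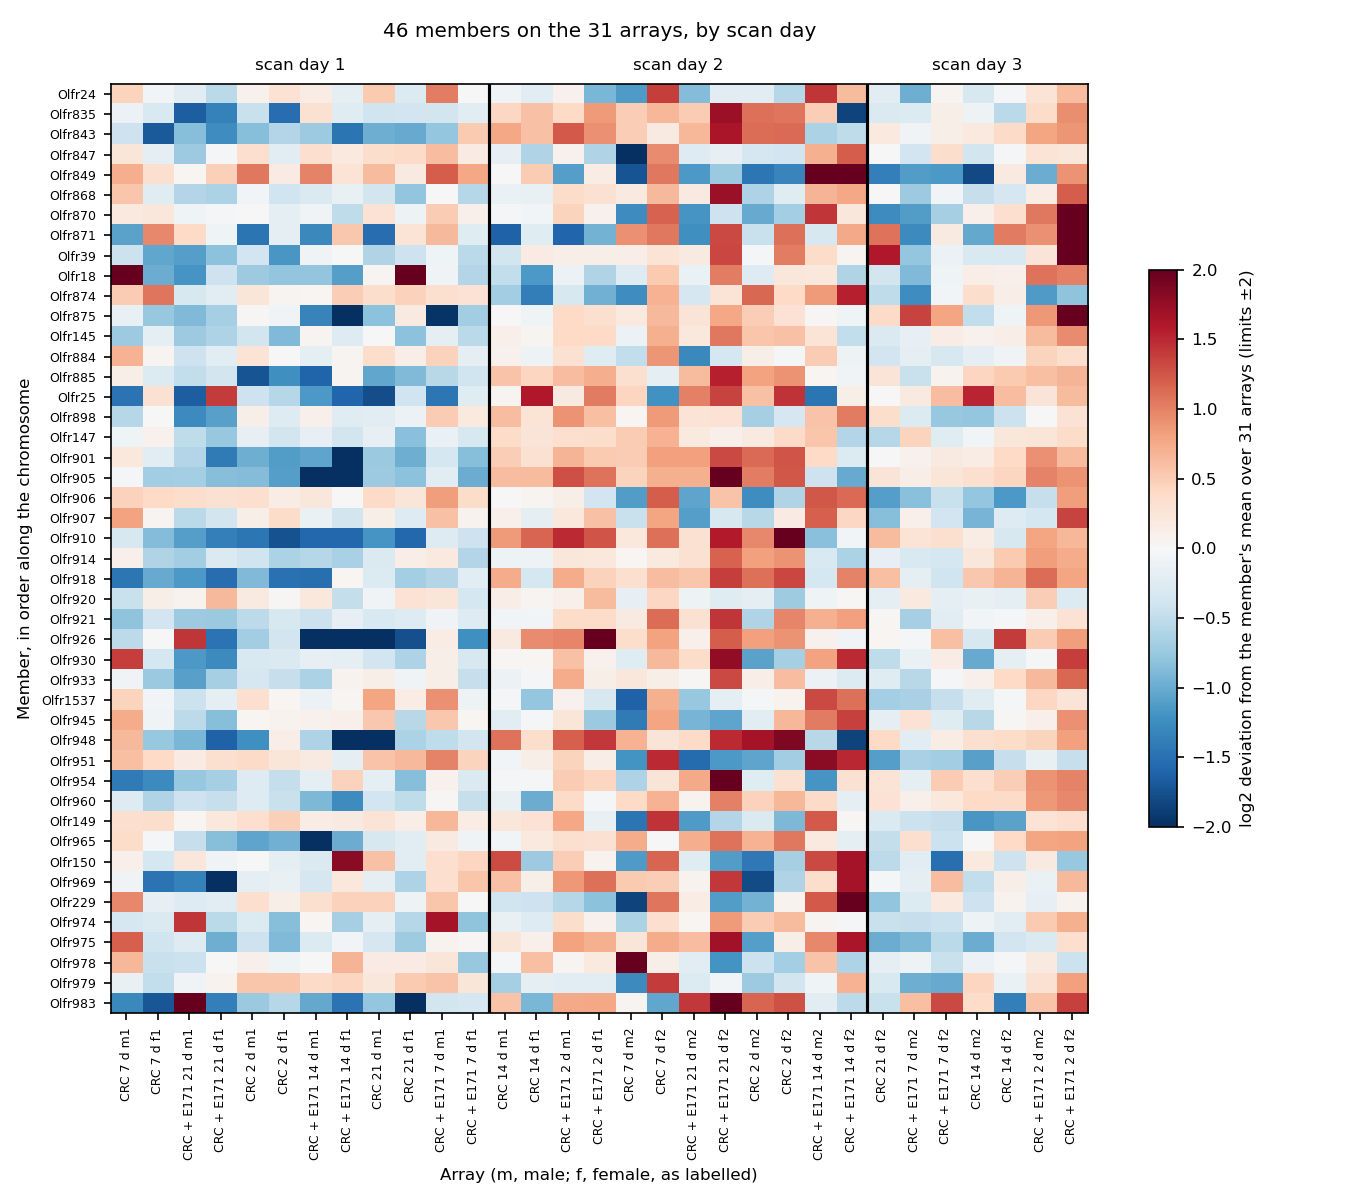
The 46 members (vertical) on the 31 arrays (horizontal, ordered by scan day), coloured by the log2 difference from the member's mean over all arrays, with colours limited at -2 and 2. Lower values are frequent on the arrays of the first scan day, where the members' median deviation has a median of -0.25, against 0.19 and -0.07 on scan days 2 and 3.

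**Figure D5:**
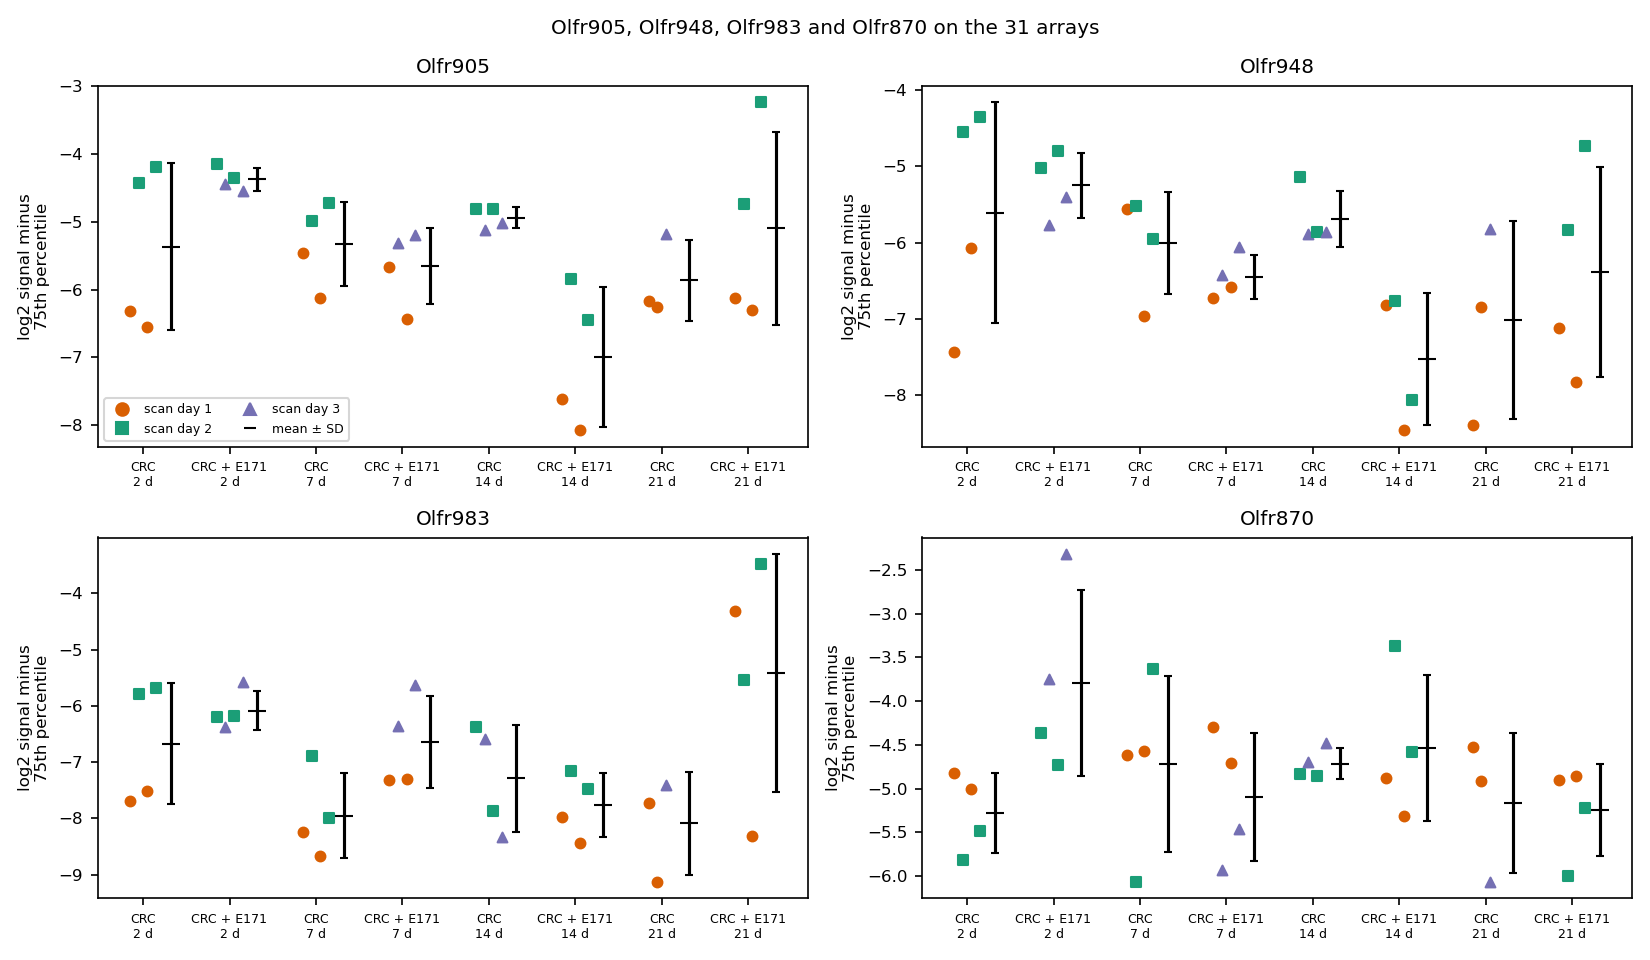
Olfr905, Olfr948, Olfr983 and Olfr870 on the 31 arrays by group, as log2 of the signal minus the array's 75th percentile, each point 1 mouse with colour and marker for the scan day. Olfr905 is at -8.08 to -5.85 in CRC + E171 at 14 days and -5.13 to -4.81 in CRC, and in CRC at 2 days it falls into 2 levels by scan day.

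Averaged over the 4 days of exposure, the E171 effect on the members was small. The median was 0.13 against 0.04 for all probes, 33 of 46 were above 0 (58.3% of all probes), and 1 member, Olfr983, met the DEG threshold beside 2% of all probes. Olfr983 (adjusted p = 0.389 by limma) had met the detection rule only in CRC + E171 groups and was well above background on none of the CRC arrays of days 7 and 21, so no size is given for it. The mean effect was 0.48 for Olfr954 and 0.49 ± 0.24 (SE) for Olfr975. No member had an adjusted p under 0.05 by limma for any day of exposure (0% of all probes on each day), for the mean effect (0.00234%), for the effect between days (0%), between the days of the CRC arrays (0.00234%) or of the CRC + E171 arrays (0.00701%), or between sexes (0.0538%). The effect differed between days with an unadjusted p under 0.05 in 10 members (7.04% of all probes), with the smallest p for Olfr905 (limma F test). Among the CRC + E171 arrays alone 15 members differed between days with an unadjusted p under 0.05, beside 16.1% of all probes, and Olfr905 was again first. With scan day as a block it was the only one of the 46 with an adjusted p under 0.05 there (adjusted p = 0.0163 by limma, beside 0.131% of all probes).

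Between the sexes 3 members had an unadjusted p under 0.05, beside 7.86% of all probes. Olfr871, well above background on 7 of 16 female and 1 of 15 male arrays, had the smallest p of the 3, with the females higher (adjusted p = 0.232 by limma, and adjusted p = 0.286 without the array whose Xist went against its label). It met the detection rule only in CRC at 21 days, where both females and not the male were well above background. A difference of it between the sexes was therefore in part built into its choice. Olfr25, well above background on 6 of 16 female and 5 of 15 male arrays, was higher in females too, and no size is given for Olfr871 or Olfr25. Olfr978 fell by 0.41 in females against males, and by 0.44 without that array.

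The background correction changed the result of the mean effect. With normexp correction of the raw spot and local background signals, an alternative to the processed signal, 6 members had an adjusted p under 0.05 by limma, all higher with E171, beside 5.52% of all probes. Olfr983 had the smallest adjusted p (0.0281 by limma) and Olfr975, at 0.49, an adjusted p of 0.0472, with Olfr849, Olfr974, Olfr150 and Olfr898 the other members. Of these 6, Olfr983, Olfr849 and Olfr150 had met the detection rule only in CRC + E171 groups, and no size is given for them. Olfr849 was well above background on 6 of 31 arrays. Of the 46, 44 were above 0, where 72.2% of all probes were, and the median was 0.30 against 0.12. The other Olfr probes gave 36 of 368. The negative control probes moved the same way on this scale, with a median of -5.73 in CRC and -5.16 in CRC + E171 arrays, and their part in the result was not tested. With scan day as a block in addition, 3 members passed (Olfr983, Olfr849 and Olfr975, beside 3.84% of all probes), and with slide as a block 3 (Olfr983, Olfr849 and Olfr898, beside 4.2% of all probes). On this scale the differences of Olfr905, Olfr25 and Olfr948 on day 14 and of Olfr874 (-0.34) on day 2 kept their sign but were not past the DEG threshold, and the typical SD of a member over the arrays was 0.44, against 0.75 on the main scale.

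The members most like Olfr975 over the 31 arrays were Olfr930 (Pearson's r = 0.85, and 0.82 after subtracting group means), Olfr868 (0.82 and 0.76), which lies in the other cluster, and Olfr969 (0.70 and 0.82). These values describe arrays that share scan days and depth and carry no test. Over the 1035 pairs of members the median r was 0.22. It was 0.16 for the 56 pairs within 100 kb of each other and 0.22 for the 360 pairs in different clusters. Pairs of the same cluster beyond 100 kb had medians of 0.25 (the 191 nearer pairs) and 0.21 (the 428 farther pairs). The most alike pairs were Olfr901 and Olfr905 (0.93, 42.5 kb apart), Olfr868 and Olfr930 (0.89) and Olfr905 and Olfr910 (0.87), and the lowest r was -0.59, between Olfr25 and Olfr951.

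By family, the medians of day 2 were above 0, at 0.57 in MOR171 (13 members), 0.41 in MOR165 (5), 0.60 in MOR162 (4), 0.62 in MOR161 (3) and 0.44 in MOR224 (3). They were not compared by a test, and the 3 members of MOR161 ran from -1.27 to 0.98. On day 14 MOR171 held 5 of 13 members past the threshold, beside 6.68% of all probes, and included Olfr948, lower with E171, and Olfr229, higher by 1.41, so members of 1 family moved in both directions. For the first against the second scan day 3 of 4 members of MOR162, 2 of 3 of MOR161, 2 of 5 of MOR165, 3 of 13 of MOR171 and 1 of 3 of MOR224 had an adjusted p under 0.05 by limma, beside 5.09% of all probes.

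The genes through which olfactory receptors signal were detected on most arrays and differed with E171 in few cases. The list of olfactory transduction genes gave 37 kept of 48 probes, 31 of them on all arrays, and 0, 3, 3 and 1 of them met the DEG threshold on days 2, 7, 14 and 21 (all probes 2.74, 12.3, 6.68 and 3.7%), none with an adjusted p under 0.05 by limma. Cnga2, a subunit of the olfactory channel, was well above background on all 31 arrays and fell by 0.77 on day 14, past the unadjusted threshold. It was also lower on the first scan day than on the second (-0.58, adjusted p = 0.0201 by limma), and the part of scan day in its day 14 value was not tested. The 2 kept probes of Slc8a1, a sodium and calcium exchanger, rose by 1.17 and 0.85 on day 14. On day 7, 1 of 3 kept probes of Cngb1, another channel subunit, fell by 0.66 and 1 of 2 kept probes of Pde1c, a phosphodiesterase, rose by 0.64 in the same test. The remaining call of that day was Ms4a4a, which was lower. For receptor trafficking and receptor choice 24 of 27 probes were kept, with 1, 2, 0 and 3 past the threshold, against the same shares. Rtp1, the chaperone of receptors, was well above background on 8 arrays in all. On day 2 it was so on 1 of 4 CRC and 3 of 4 CRC + E171 arrays, with means of -7.29 and -5.40, and passed the unadjusted threshold. It met the detection rule only through CRC + E171 at 2 days, so its difference on this day was in part built into its choice. Rtp1 was also lower on the first scan day (adjusted p = 0.00059 by limma). On day 21, 2 of 3 kept Ebf1 probes fell by 1.14 and 1.07, and the other one, at -0.98, did not pass.

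Of 333 probes of other chemosensory receptors 105 were kept. They gave 7 (6 higher), 11 (3 higher), 29 (11 higher) and 3 (3 higher) past the threshold and medians of 0.59, -0.20, -0.15 and 0.19 on the 4 days, beside 2.74, 12.3, 6.68 and 3.7% of all probes past it. Of the 8 lower on day 7, 3 were probes of Fpr1 (-3.03) and Fpr2 (-2.56 and -2.41), formyl peptide receptors of neutrophils, whose marker probes had a median of -2.69 on that day, and their part was not tested. Between the first and second scan day 29 of the 105, all lower on the first, had an adjusted p under 0.05 by limma, beside 5.09%. The defining markers of olfactory sensory neurons were partly present, with 7 of 11 probes kept and 4 on all arrays. Omp was bright (mean 1.61), with its probe well above background on 31 arrays, while the 2 probes of Stoml3 were so on 0 and 5 arrays.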

How the data were processed

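Distal colon RNA of 31 mice was measured on one-colour Agilent arrays with 60-base probes. The authors scanned them and extracted the spots with Feature Extraction 10.7.3.1. The deposited processed signal is an intensity with background subtracted and not normalized between arrays. The deposited matrix holds log2 values that the authors filtered, imputed and normalized by a method not given in the sources used here. It served as an alternative and held 43 of the 46 members, and 31 of 31 columns matched the array they name best (lowest Spearman's rho 0.994). Its columns had medians of 9.43 to 9.67.

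Each array's log2 intensity was set against its 75th percentile (R 4.3.3 with data.table (version 1.17.8), statmod 1.5.0, limma 3.58.1). Control and outlier spots were left out. The 42787 probes with a fit (246 with a missing value) entered 1 limma model over the 8 groups, with Benjamini-Hochberg adjustment over all probes. The members' chromosome was read from the listed mm9 position. No member spot was saturated or an outlier. The number of arrays limits the precision. The fits were tested on simulated data.

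Named genes were Olfr975, the 3 members with the smallest p per day, the first 6 by position of the 11 detected on all arrays, the 3 with the smallest p of the mean effect, the 3 most like Olfr975 and examples beside the detection threshold. The members and lists were chosen with earlier results of these data known. The gene lists come from general knowledge of olfactory transduction, trafficking, chemosensory receptors and tissue markers.

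Alternatives were quantile normalization, normexp with an offset of 50, no filter, the study's filter, the authors' matrix, only the groups compared, sex, replicate number or slide as a block, an intensity trend, array weights and leaving out each array. Scan day and slide as fixed blocks and leaving out both CRC 7 days males were added after the data had been seen.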

Additional observations from a re-analysis of the deposited data

Results flagged for a closer look

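In each of the 7 groups of 4 arrays the values of Olfr975, of the 3 members with the smallest p on that day and of the members' median deviation were examined, 35 sets in all, and in 1 set a value stood far from the others. Olfr948 read -5.14 on CRC 14 days male 1, where the nearest other array was at -5.86 and the farthest at -5.89, so the gap was 0.954 of the whole range. By chance about 1 in 20 groups would show such a value.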

How the results depend on the processing

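No single gene called past its threshold changed sign. Leaving out an array aside, the members' median was 0.10 on day 7 with normexp, at lowest -0.01 on day 14 (array weights) and -0.19 on day 21 (array weights). Its sign on those days depends on the setting. The members past the fold and p threshold numbered 5 on day 2 (2.74% of all probes), and 12 with normexp (4.05%), 8 with only the groups compared (4.16%) or array weights (5.74%) and 13 with a replicate block (4.76%). On day 7 the count of 1 (12.3%) was 2 with quantile normalization (12.5%) or normexp (11.2%) and 3 with a replicate block (12.8%). On day 14 the count of 12 (6.68%) was 19 with quantile normalization (7.48%), 20 in the authors' matrix (9.72%) and 5 with scan day as a block (6.06%). On day 21 the count of 3 (3.7%) was 5 with quantile normalization (3.62%) or a replicate block (5.47%), 13 with no filter (4.22%) and 7 with array weights (8.48%). With no filter the members' medians were 0.15 on day 2 and 0.51 on day 21, since 140 probes then enter. For the mean effect normexp gave 6 adjusted calls (5.52%) where the main values gave 0. Between days the CRC + E171 arrays gave 1 in the matrix (0.655%) or with a scan day block (0.131%), 2 with a replicate block (0.823%) and 5 with array weights (8.3%), where the main values gave 0, and the CRC arrays 1 with array weights (2.19%). The first against the second scan day gave 8 with quantile normalization (2.94%) and 5 with normexp (1.34%) instead of 15 (5.09%). The matrix gave 3 members at the smallest exact permutation p instead of 5. With an array left out, the counts past the threshold ranged over 2 to 13, 0 to 3, 8 to 16 and 1 to 6 on days 2, 7, 14 and 21 (all probes 1.43 to 4.98%, 5.52 to 19.2%, 4.91 to 10.7% and 3.1 to 5.83%), the medians over 0.34 to 0.77, -0.34 to 0.07, -0.03 to 0.16 and -0.10 to 0.27, the scan day calls over 12 to 17 (4.09 to 6.29%) and the permutation count over 2 to 6. Adjusted calls stayed at 0 there for each day, and the transduction and chemosensory lists gave 0 to 1. Of 290 fits of single genes under the other alternatives, 250 kept their side of the threshold, 19 lost it and 21 gained it. Replicate numbers were not taken as pairs, since 9 of 15 pairs, not all, correlated above 0.1 (range -0.15 to 0.45). In 8 of 15 the own number was closest, the 3 of day 21 among them, and replicate number follows scan day in part. The causes of these differences were not tested. Dim signal limits the members, which had a median of -5.22 where the negative controls lay at -9.34 to -7.79.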
